A study of Rattus norvegicus with 6 samples.

Results

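The Wnt ligands, their receptors, their inhibitors and the proteins that relay their signal were followed in rat lateral ventricular choroid plexus at embryonic day 15 (E15) and in the adult. The members were the genes whose symbol in the authors' table of called genes began as a Wnt pathway gene does (Wnt, Fzd, Sfrp, Dkk, Rspo, Axin, Tcf7, Lef1, Ctnnb and others), which gave 60 genes of the 29479 identifiers counted. That table holds the 10653 identifiers that the authors had called between these same ages, so each member was chosen by the comparison described here, and the values that follow describe the members without testing them. Both ages came from untreated Sprague-Dawley rats, with 3 RNA pools per age, and each pool held the left and right plexuses of 10 animals. The adults were 6 weeks old. The plexus was sequenced whole, so every pool held epithelium, stroma, vessels and blood, and in such bulk samples fewer cells of a type and less RNA per cell cannot be told apart.

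Wnt proteins are secreted lipid-modified ligands that bind frizzled receptors together with the co-receptors Lrp5 or Lrp6, or with Ror receptors. In the canonical branch, binding stops a destruction complex of axin, APC, GSK3 and casein kinase from removing β-catenin, which then acts with TCF and LEF factors in the nucleus. Other branches act on cell polarity through dishevelled, Vangl and Prickle proteins. In the embryonic forebrain the cortical hem, a Wnt-secreting strip of the dorsal midline, borders the tissue from which the choroid plexus forms.

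Libraries held between 17875089 and 19204440 counts. Replicate pools of an age differed by more than counting noise (chi-square per degree of freedom between 5.40 and 56.4), and each was kept as a sample. TMM scaling factors were 1.32 to 1.33 at E15 and 0.735 to 0.773 in the adult, where the transthyretin gene *Ttr* alone took 2649939 to 3238055 counts of a library, against 476150 to 612984 at E15. Levels below are normalized counts, that is, counts scaled to a common library of 19267327 reads, and they compare ages within a gene but not genes with each other, because transcript length was not used. Pool values are listed in the order of pools 1, 2 and 3 of an age. All 8 measured markers of choroid plexus epithelium were above 0 in every pool, and their summed normalized count was 439068 to 543965 at E15 and 3989590 to 4926590 in the adult. *Ttr* gave most of that sum, 389713 to 480714 at E15 and 3639580 to 4584670 in the adult. Transcripts of other cells were present too. The 8 endothelial markers summed to 8991 to 13112 at E15 and 1034 to 1453 in the adult, and the 10 stromal markers to 48728 to 64205 and 34071 to 35030. Of the stromal markers, 7 were called higher at E15 and 3 (*Pdgfra*, *Dcn* and *Lama2*) higher in the adult, where *Lama2* gave 15008 to 16440 of the sum. The 7 proliferation markers summed to 16288 to 21603 at E15 and 596 to 806 in the adult. The 10 developing-neuron markers summed to 4096 to 6945 at E15, with 8 called higher there, and to 12926 to 14220 in the adult, where *Reln* gave 12747 to 13489 of the sum and *Neurod6* was at 0. The 7 neural progenitor markers summed to 4223 to 8280.4 at E15 and 2006 to 2097 in the adult. The part of these cells in the differences between the ages was not tested.

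The Wnt pathway genes were for the most part enriched at E15. Of the 60 members, 46 were called higher at E15 and 11 higher in the adult by the edgeR quasi-likelihood test with Benjamini-Hochberg adjustment over all genes, where 34.7% of the 16643 genes tested were called higher at E15 and 29.3% higher in the adult. Since the authors' call selected the members, nothing is read from that comparison, nor from the counts of calls by role given below. In 47 members every E15 pool lay above every adult pool and in 11 every adult pool lay above every E15 pool, against 38.0% and 32.1% of all genes tested. By fitted fold, 41 called members exceeded a 2-fold enrichment at E15 and 26 a 10-fold one, whereas 7 were enriched more than 2-fold in the adult. The 10-fold count includes *Wnt1*, which had 0 adult reads and a lower bound of only 4.65-fold. Shares of all genes beyond these folds were not computed. The median log2 ratio of E15 to adult was 2.42 over the members, or 2.18 with members at 0 adult counts placed at their lower bound, and 0.14 over all genes tested. Together the members took 0.462 to 0.521% of the counts of an E15 library and 0.191 to 0.198% of those of an adult library. These shares are of raw totals, in which *Ttr* and other abundant adult transcripts are left uncorrected. In normalized counts the gap was narrower. Summed over all members, E15 pools 1 to 3 held 67587, 75869 and 75611, whereas adult pools 1 to 3 held 50185.5, 49311 and 49270. Transcript length was not used in these sums either. *Wnt16*, *Fzd5* and *Wnt9b* were not called here. The smallest changes among called members were those of *Vangl1* (1.45-fold) and *Csnk1d* (1.47-fold). The authors' table names 10093 of its 10653 identifiers, and pathway genes without a name there were not analysed by name, whether or not the authors had called them.

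**Figure D1:**
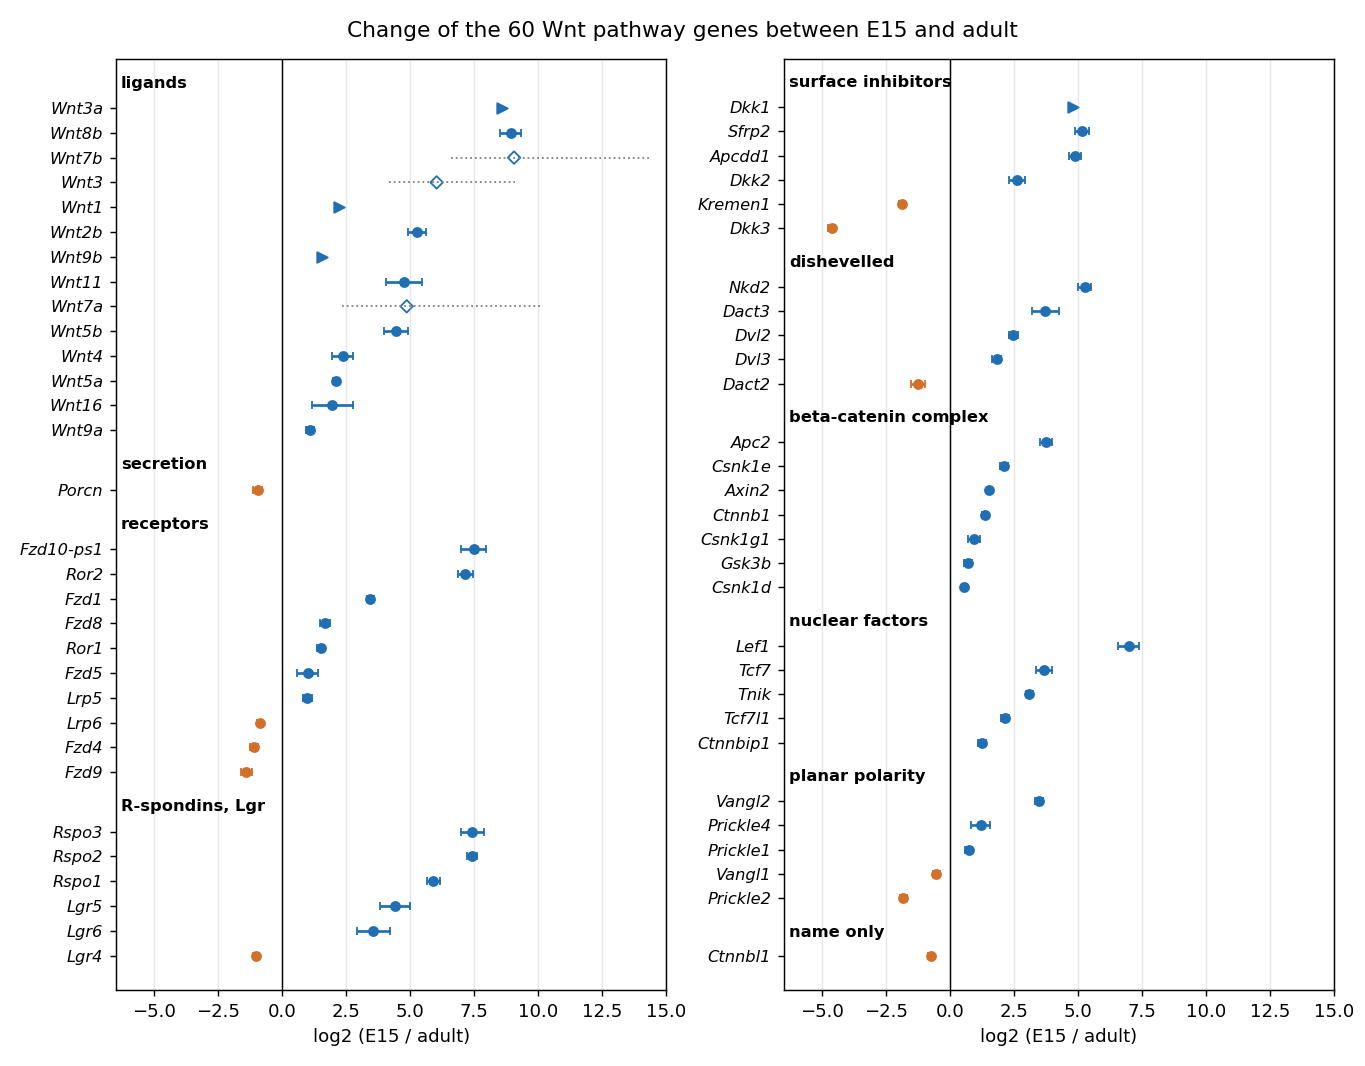
Log2 ratio of E15 to adult for the 60 Wnt pathway genes, ordered by role. Circles with bars are fitted values ± SE (blue, higher at E15; orange, higher in the adult; 3 pools per age), right-pointing triangles are lower bounds for 4 genes with 0 adult counts, and open diamonds with dotted lines are count ratios with 95% intervals for 3 genes with 1 to 3 adult counts. The ligands lie at or to the right of 1.07, and *Dkk3* lies farthest to the left at -4.63.

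All 14 Wnt ligands among the members had a higher mean at E15 than in the adult. Of these, 12 were called, and none was called in the adult direction. Of all genes tested, 34.7% were called higher at E15 and 29.3% in the adult, and the authors' call had selected every ligand. Their normalized counts summed to 5029, 6627 and 6612 at E15, against 889, 899 and 956 in the adult. *Wnt8b*, *Wnt3a* and *Wnt2b* are known as ligands of the cortical hem. Of 4 other markers of the hem and roof plate, 3 were called higher at E15 and *Msx1* higher in the adult, and the part of hem tissue in the ligand values was not tested. *Wnt8b* stood at 1264, 1729.6 and 1808 at E15 and at 1.42, 0.00 and 8.24 in the adult, a 485-fold enrichment. Only 7 adult reads lie behind that fold, 6 of them in adult pool 3, and without that pool the count ratio was 2371 (95% interval 425 to 93658), while without adult pool 2 the fold was 312.

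*Wnt3a*, a ligand of the canonical branch, gave 616, 684 and 681 reads at E15 and 0 in each adult pool. Its E15 pools lay close together (normalized counts of 504, 527 and 534), and with 3 adult reads allowed over the adult pools its enrichment was at least 384-fold. *Wnt2b* stood at 615, 754 and 799 at E15 and at 9.91, 11.7 and 34.3 in the adult, 38.6-fold higher at E15. Adult pool 3 was the highest adult pool for *Wnt2b* as for *Wnt8b*, and without it the *Wnt2b* fold was 64.8.

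**Figure D2:**
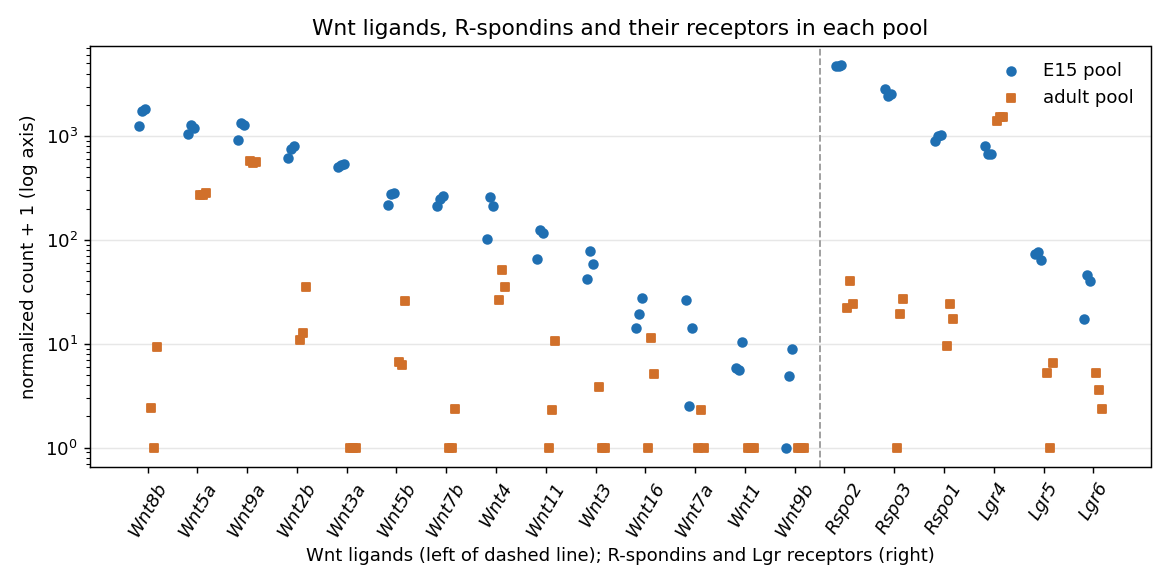
Normalized count + 1 in each pool for the 14 Wnt ligands (left of the dashed line) and for the R-spondins and Lgr receptors (right), on a log axis. Blue circles are E15 pools and orange squares adult pools, and a square at 1 is a pool with 0 reads. *Wnt3a*, *Wnt1* and *Wnt9b* have all adult pools at 0, whereas *Wnt5a* and *Wnt9a* keep adult values above 250 and *Lgr4* is higher in the adult.

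*Wnt7b* and *Wnt7a* encode closely related ligands known for their action on brain vessels. *Wnt7b* was at 210.3, 246 and 267 at E15 and had 1 adult read, in pool 3. The ratio was 532 with a counting interval of 95.2 to 21036, with adult pool 2 left out the ratio was 346 (61.98 to 13688), and with adult pool 3 left out the enrichment was at least 119-fold. *Wnt7a* was low and uneven, with 31, 2 and 17 reads in the E15 pools and 1 read in the adult, and its ratio was 29.0 (4.98 to 1170). E15 pool 2, the lowest for *Wnt7a*, was also the lowest E15 pool for 9 of 10 developing-neuron markers and 6 of 7 neural progenitor markers, and E15 pool 1, the highest for *Wnt7a*, was the highest for 8 and 6 of them. The part of such cells in the *Wnt7a* values was not tested. *Wnt7a* lost its call in limma-voom and without adult pool 1 or adult pool 3, its ratio was 16.3 (2.59 to 676) without E15 pool 1, and its bound was 6.30-fold without adult pool 2.

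*Wnt3*, another canonical ligand, was at 40.9, 77.8 and 58.0 at E15 and had 2 reads in the adult, both in pool 1. The ratio was 65.3 (17.88 to 543), leaving out adult pool 2 gave 42.5 (11.6 to 353), and leaving out adult pool 1 gave an enrichment of at least 29.6-fold. *Wnt1*, which acts at the midbrain and hindbrain border, gave 6, 6 and 12 reads at E15 and 0 in the adult, at least 4.65-fold higher at E15. *Wnt9b* gave 0, 5 and 10 reads at E15 and 0 in the adult. That difference had a bound of 2.90-fold and was not called, except without E15 pool 1, with total-count scaling and in the exact test, and the pool without reads at E15 overlapped the adult. Without E15 pool 3 the bound was 1.46-fold, and without E15 pool 2 or pool 3 the reads were too few for the test. Leaving out an adult pool lowers each bound of a gene with 0 adult reads by about 1.5 times by construction, to 249.5-fold for *Wnt3a* without adult pool 2 for example.

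A further group holds ligands known mostly from β-catenin-independent signalling. *Wnt5a* was at 1048, 1281 and 1201 at E15 and at 269, 273 and 282 in the adult, a 4.29-fold enrichment (log2 ratio 2.10 ± 0.13 SE). *Wnt5b* was at 214, 278 and 284 at E15 and at 5.66, 5.19 and 24.7 in the adult. The adult value of *Wnt5b* rested mainly on pool 3, so that its fold was 21.7 with that pool and 45.9 without it. *Wnt11* also had its highest adult value in pool 3, with 64.7, 125 and 116 at E15 against adult values of 0.00, 1.30 and 9.61. Its fold was 27.2, and its count ratio without adult pool 3 was 151 (27.0 to 5992). *Wnt4* was at 101, 257 and 213 at E15 and at 25.5, 50.6 and 34.3 in the adult, 5.14-fold higher at E15. The lowest E15 pool of *Wnt4* was nevertheless above its highest adult pool.

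*Wnt9a* changed least among the called ligands. It was at 925, 1325 and 1275 at E15 and at 575, 545 and 558 in the adult, a 2.10-fold difference (log2 ratio 1.07 ± 0.15 SE). The adult pools of *Wnt9a* differed little among themselves, and with *Wnt5a* it gave most of the adult ligand reads. *Wnt16* was at 13.1, 18.5 and 26.7 at E15 and at 0.00, 10.4 and 4.12 in the adult. Its pools did not overlap and it was not called, but it was called under 8 of the alternatives tried, among them the fit without adult pool 2, where its ratio was 9.32 (3.07 to 46.2).

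Of the 11 ligands with adult reads, 6 were highest in adult pool 3 (*Wnt8b*, *Wnt11*, *Wnt2b*, *Wnt5b*, *Wnt7b* and *Wnt5a*), 3 in pool 2 and 2 in pool 1. Marker lists differed in the pool that was highest. Adult pool 3 was the highest for 4 of 7 proliferation, 4 of 8 epithelial (pool 1 for the rest) and 2 of 4 hem and roof plate markers, and adult pool 2 for 8 of 10 developing-neuron, 6 of 8 endothelial and 7 of 10 stromal markers. The part of any of these cells in the adult ligand values was not tested.

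Some ligand genes are neighbours in the rat genome (RefSeq annotation of the GRCr8 build), on opposite strands of chromosome 10 with no other protein-coding gene between them. *Wnt3a* pairs with *Wnt9a*, and *Wnt9b* with *Wnt3*. The first pair parted in the adult, where *Wnt3a* was at 0 while *Wnt9a* stood at 545 to 575. Their promoter windows, from 250 bases before to 50 after the RefSeq gene start, are shown because the genes are adjacent and only the first had no adult read. The *Wnt3a* window is chr10:44577870-44578169 (minus strand, G and C 85.3%) and the *Wnt9a* window chr10:44593441-44593740 (plus strand, G and C 80.7%), both printed 5′ to 3′ without a marked motif.
Wnt3a: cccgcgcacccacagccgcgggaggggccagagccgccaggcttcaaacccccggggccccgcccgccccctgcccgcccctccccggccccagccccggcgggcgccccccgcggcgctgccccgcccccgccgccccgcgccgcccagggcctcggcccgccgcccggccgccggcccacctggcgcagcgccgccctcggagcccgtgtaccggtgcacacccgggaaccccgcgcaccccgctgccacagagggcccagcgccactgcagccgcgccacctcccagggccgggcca
Wnt9a: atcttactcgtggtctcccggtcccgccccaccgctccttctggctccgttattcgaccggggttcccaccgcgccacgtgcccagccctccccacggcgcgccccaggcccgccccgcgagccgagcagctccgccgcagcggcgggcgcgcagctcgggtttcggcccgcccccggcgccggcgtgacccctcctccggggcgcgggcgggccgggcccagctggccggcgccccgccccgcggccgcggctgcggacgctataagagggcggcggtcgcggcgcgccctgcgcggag

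*Porcn*, the enzyme that adds the lipid to Wnt proteins, ran opposite to the ligands. It was at 187, 243 and 222 at E15 and at 401, 493 and 385 in the adult, 1.96-fold higher in the adult. *Wls*, the carrier that brings lipid-modified Wnt proteins to the cell surface, is listed by the authors under a protein name and so fell outside the rule. It too was higher in the adult, with 15196, 13679.6 and 14911 at E15 against 36457, 34354 and 36435 in the adult (2.45-fold). For both genes every adult pool lay above every E15 pool, while the call of *Porcn* was lost when libraries were scaled by total counts only.

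Among the 10 receptors and co-receptors, 6 were called higher at E15 and 3 higher in the adult, against 34.7% and 29.3% of all genes tested. The median log2 ratio of these receptors was 1.25. *Fzd1*, a frizzled receptor, was at 5951, 5612 and 5224 at E15 and at 439, 523 and 579.6 in the adult, a 10.9-fold enrichment. *Fzd10-ps1*, a symbol that RefSeq gives as a synonym of the protein-coding *Fzd10*, was at 314, 539.8 and 420.3 at E15 and at 4.25, 2.60 and 0.00 in the adult. That is a 178-fold difference on 5 adult reads, and without adult pool 1 the count ratio was 320 (88.4 to 2644). *Fzd8* was at 599, 909 and 977 at E15 and at 270.4, 278 and 239 in the adult, 3.16-fold higher at E15. The separation was thus wide for *Fzd10-ps1* and narrower for *Fzd8*.

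Frizzleds did not all move one way. *Fzd4*, which also serves as the receptor for norrin in vessels, was at 331, 297 and 302 at E15 and at 793, 609 and 611 in the adult, 2.16-fold higher in the adult. The call of *Fzd4* was lost under total-count scaling. *Fzd9* was at 97.4, 77.8 and 85.5 at E15 and at 258, 227 and 205 in the adult (2.64-fold). Neither overlapped between the ages. *Fzd5* was at 38.5, 73.2 and 104 at E15 and at 46.7, 26.0 and 35.7 in the adult. E15 pool 1 of *Fzd5* lay within the adult range, and the gene, not called by the quasi-likelihood test with all pools under TMM, was called without that pool, under 3 other scalings and in the exact test with a common dispersion.

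The 2 co-receptors of the canonical branch differed in direction. *Lrp5* was at 887, 1369 and 1194 at E15 and at 614, 639 and 501 in the adult (1.97-fold higher at E15). *Lrp6* was at 2649, 2350.3 and 2215 at E15 and at 4334, 4223 and 4639.5 in the adult (1.83-fold higher in the adult). Neither gene had overlapping pools, although the *Lrp6* call was lost under total-count scaling, where its log2 ratio was -0.07. The Ror receptors, which bind Wnt5a, were both enriched at E15 but to different degrees. *Ror2* was at 611, 933 and 827 at E15 and at 4.25, 7.79 and 4.12 in the adult, a 142-fold difference (log2 7.15 ± 0.30 SE). *Ror1* was at 1017, 1010.3 and 1004 at E15 and at 382, 383 and 309 in the adult, a 2.82-fold difference.

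R-spondins are secreted proteins that raise the number of Wnt receptors on a cell through Lgr4, Lgr5 and Lgr6. All 3 R-spondin members were far higher at E15. *Rspo2* was at 4763, 4691 and 4828 at E15 and at 21.2, 39.0 and 23.3 in the adult, a 169-fold enrichment. *Rspo3* was at 2843, 2423 and 2515 at E15 and at 0.00, 18.2 and 26.1 in the adult, a 172-fold enrichment that was 115-fold without adult pool 1 and 267-fold without adult pool 3. *Rspo1* was at 901, 1005 and 1024 at E15 and at 8.50, 23.4 and 16.5 in the adult, a 59.5-fold enrichment. The E15 pools agreed closely for all of them, and the spread lay in the few adult reads.

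The receptors split. *Lgr4* was higher in the adult, at 1382, 1517 and 1529 against 797, 672 and 678 at E15 (2.06-fold), a call lost under total-count scaling. *Lgr5*, known as a stem cell marker and a target of β-catenin, was at 72.0, 75.5 and 62.7 at E15 and at 4.25, 0.00 and 5.49 in the adult. Its 21.2-fold enrichment rested on 7 adult reads, was 13.7-fold without adult pool 2 and had a count ratio of 34.5 (11.7 to 168) without adult pool 3. *Lgr6* was at 16.4, 44.7 and 39.2 at E15 and at 4.25, 2.60 and 1.37 in the adult (11.8-fold). No adult pool of *Lgr5* or *Lgr6* reached any E15 pool.

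Inhibitors at the cell surface held the gene that changed most in the adult direction. *Dkk3*, a divergent member of the dickkopf family of secreted proteins, was at 693, 802 and 667 at E15 and at 18651, 16940.5 and 18084 in the adult, 24.8-fold higher in the adult (log2 ratio -4.63 ± 0.12 SE). *Kremen1*, a receptor for dickkopf proteins, was at 444, 533 and 469 at E15 and at 1675, 1743 and 1895 in the adult (3.67-fold). Both kept their adult call under all 5 scalings tried. The dickkopfs that bind Lrp6 ran the other way. *Dkk1* gave 66, 50 and 29 reads at E15 and 0 in the adult, at least 28.1-fold higher at E15, and *Dkk2* was at 378, 322 and 290.2 at E15 and at 28.3, 79.2 and 53.6 in the adult (6.10-fold).

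*Sfrp2*, a secreted protein that binds Wnts, was at 302, 359.6 and 322 at E15 and at 11.3, 9.09 and 6.87 in the adult (35.7-fold). *Apcdd1*, a membrane inhibitor of Wnt signalling, was at 853, 1243 and 1309 at E15 and at 31.1, 46.7 and 35.7 in the adult (29.8-fold). Both stood far apart between the ages in every pool. The summed normalized count of the 6 inhibitors was 2724, 3298 and 3080.4 at E15 against 20397, 18818 and 20075.8 in the adult, sums of counts not adjusted for length in which *Dkk3* gave most of the adult reads.

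Among the genes the authors had called, 5 inhibitors of the same list fell outside the rule, because the table spells them otherwise or the rule did not cover them. Of these, 4 were called higher at E15 and 1 higher in the adult, against 34.7% and 29.3% of all genes tested. *Sostdc1*, a secreted antagonist of Wnt and BMP signalling, was the one, at 7007, 6077 and 6259 at E15 and at 82227, 92573 and 90575 in the adult (13.7-fold). *Frzb*, a secreted frizzled-related protein, was at 833, 738 and 553 at E15 and at 55.2, 99.99 and 48.1 in the adult (10.4-fold). *Notum*, an enzyme that removes the lipid from Wnt proteins, was at 142, 218 and 197 at E15 and at 0 in the adult, at least 137-fold higher at E15. The ages overlapped in none of these.

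**Figure D3:**
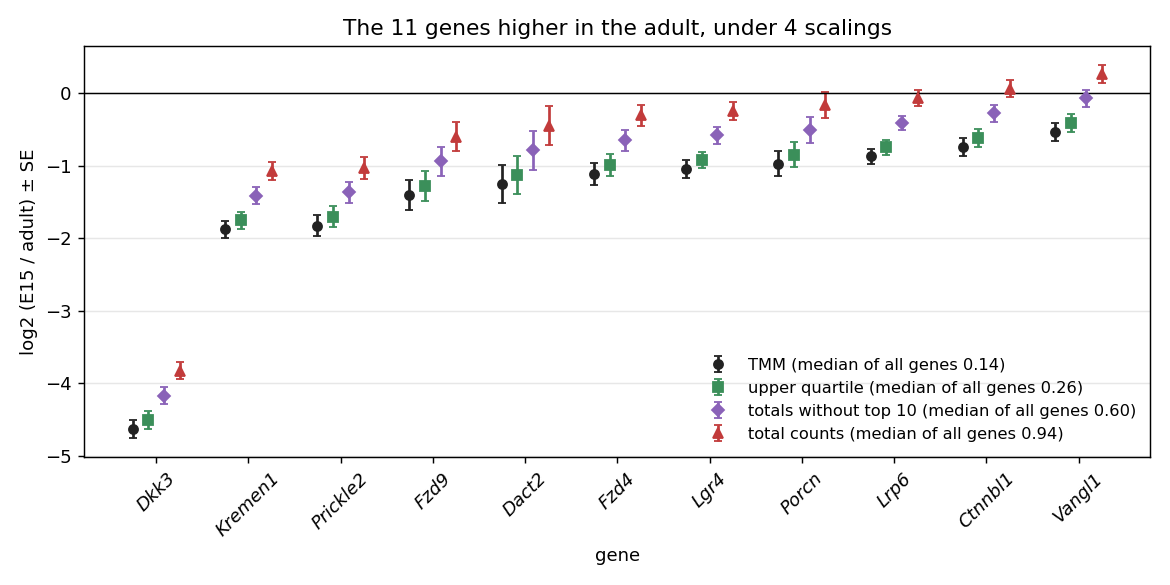
Log2 ratio of E15 to adult ± SE for the 11 members called higher in the adult, under 4 ways of scaling the libraries (3 pools per age). Values below 0 are higher in the adult. From TMM to total counts the values of all 11 genes move up, those of *Vangl1* and *Ctnnbl1* pass 0, and *Dkk3*, *Kremen1*, *Prickle2* and *Fzd9* stay called.

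The scaling of the libraries weighed on the adult side of the pathway. With total counts only, which leave the share of *Ttr* and other abundant adult transcripts uncorrected, the median log2 ratio of all genes moved from 0.14 to 0.94, and 4 members (*Dkk3*, *Kremen1*, *Prickle2* and *Fzd9*) stayed called higher in the adult in place of 11. *Vangl1* and *Ctnnbl1* then changed direction, with log2 ratios of 0.27 and 0.07. With totals that left out the 10 most abundant genes the median was 0.60 and 9 members were called in the adult direction. Among all calls, 54.2% were in the E15 direction under TMM, 81.0% under total counts and 71.6% without the top 10 genes. For member calls these shares were 80.7%, 92.5% and 84.2%.

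Inside the cell, 4 of the 5 genes for dishevelled or its regulators were called higher at E15, as were 34.7% of all genes tested. *Dvl2*, a relay from frizzled to the branches of the pathway, was at 819, 1127 and 1132 at E15 and at 214, 178 and 163 in the adult (5.55-fold). Its paralog *Dvl3* was at 919, 1476 and 1319 at E15 and at 358, 357 and 336 in the adult (3.53-fold). *Nkd2*, which binds dishevelled and dampens the signal, was at 705, 1125 and 943 at E15 and at 21.2, 28.6 and 22.0 in the adult (38.3-fold). In all of them E15 pool 1 was the lowest E15 pool, yet it stayed above the adult.

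The Dact genes encode further dishevelled-binding proteins. *Dact3* was at 146, 363 and 314 at E15 and at 14.2, 39.0 and 8.24 in the adult, 13.2-fold higher at E15, or 23.7-fold without adult pool 2. *Dact2* was at 101, 196 and 210.2 at E15 and at 362, 447 and 399.7 in the adult, 2.38-fold higher in the adult. The pair thus moved in opposite directions, and the call of *Dact2* was lost under total-count scaling.

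All 7 members listed under β-catenin and its destruction complex were called higher at E15, as were 34.7% of all genes tested. The median log2 ratio of these members was 1.36. Of 15 genes listed for this group, 7 were not matched by name, among them *Axin1*, *Apc*, *Gsk3a* and *Csnk1a1*. *Ctnnb1*, β-catenin itself, was at 14937, 18345 and 19321 at E15 and at 6752, 7196 and 6556 in the adult (2.57-fold). *Apc2*, a scaffold of the complex, was at 766, 889 and 1035 at E15 and at 82.1, 72.7 and 45.3 in the adult (13.4-fold). *Csnk1e*, a casein kinase, was at 1072, 1266 and 1365 at E15 and at 317, 296 and 236 in the adult (4.36-fold). None of these pools overlapped between the ages, and the other kinases had smaller folds. *Gsk3b*, which marks β-catenin for removal, was at 1127, 807 and 838 at E15 and at 548, 610.3 and 552 in the adult (1.62-fold). *Csnk1d* was at 5703, 6166 and 5872 at E15 and at 4188, 4172 and 3745 in the adult (1.47-fold), and *Csnk1g1* was at 174, 136 and 135 at E15 and at 72.2, 68.8 and 90.6 in the adult (1.91-fold). Here too every E15 pool lay above every adult pool.

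*Axin2* is both a scaffold of the destruction complex and a widely used target gene of β-catenin. It was at 2584, 2879 and 2798 at E15 and at 879, 965 and 1008 in the adult, 2.90-fold higher at E15 (log2 1.53 ± 0.11 SE). Its adult pools overlapped no E15 pool, and its adult mean was 951 ± 65.6 (SD, n = 3). *Amer1*, a partner of axin and APC listed under an older symbol outside the rule, was at 239.8, 253 and 253 at E15 and at 102, 72.7 and 114 in the adult (2.58-fold).

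Each of the 5 nuclear factors among the members was called higher at E15, as were 34.7% of all genes tested. *Lef1*, a partner of β-catenin on DNA, was at 398, 417 and 433 at E15 and at 0.00, 5.19 and 4.12 in the adult, a 126-fold enrichment. The fold rested on 7 adult reads, and without adult pool 2 the count ratio was 199 (68.0 to 966). *Tcf7* was at 250.5, 421 and 405 at E15 and at 35.4, 29.9 and 19.2 in the adult (12.7-fold). *Tcf7l1*, a family member known chiefly as a repressor, was at 724, 792 and 775 at E15 and at 147, 186 and 184 in the adult (4.43-fold). The 3 DNA-binding factors among the members were thus enriched at E15, with *Lef1* farthest from its adult level. *Tcf7l2*, of the same list, was not matched by name and has no value here.

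*Tnik*, a kinase that binds TCF factors, was at 1044, 1096 and 1114 at E15 and at 112, 129.9 and 137 in the adult (8.57-fold). *Ctnnbip1*, which keeps β-catenin from TCF, was at 754, 581 and 673 at E15 and at 279, 266 and 305 in the adult (2.36-fold). The ages did not overlap for either. The 7 genes of this list outside the rule came from the same table of genes the authors had called, and all were higher at E15. They include *Tle1*, a co-repressor at TCF sites, at 2746, 2501 and 2543 against 525, 471 and 450.5 in the adult (5.38-fold), and *Bcl9*, a co-activator of β-catenin, at 2499.6, 2208 and 2115 against 476, 589.5 and 615 (4.06-fold). The related *Bcl9l* was at 1995, 3383 and 2999 at E15 and at 1309.7, 1213 and 1056 in the adult (2.34-fold).

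Planar polarity genes, which set the orientation of cells in a sheet, went both ways. *Vangl2* was at 1603, 1773 and 1979 at E15 and at 167, 138 and 179.9 in the adult (11.1-fold higher at E15), while its paralog *Vangl1* was at 366, 407 and 371 at E15 and at 538, 543 and 578 in the adult (1.45-fold higher in the adult). *Prickle1* was at 1199.9, 1361 and 1078 at E15 and at 735, 732 and 740.3 in the adult (1.65-fold higher at E15). *Prickle2* was at 271, 283 and 237 at E15 and at 803, 1029.7 and 978 in the adult (3.55-fold higher in the adult). Paralogs of both families therefore moved in opposite directions under TMM, *Vangl1* with the reservation on scaling given above.

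*Prickle4* was at 34.4, 70.1 and 60.4 at E15 and at 22.7, 27.3 and 22.0 in the adult, a 2.29-fold difference. Its call was lost without E15 pool 2, E15 pool 3, adult pool 1 or adult pool 3, with folds of 1.97 to 2.17 in those fits. Of all genes tested, 34.7% were called higher at E15. The 4 polarity genes outside the rule, likewise from the authors' table of called genes, were all called so. Among them was *Celsr1*, an atypical cadherin of the polarity complex, at 2027, 2373 and 2543 against 144, 116 and 132 in the adult (17.7-fold). *Celsr2*, of the same family, was at 2825, 4408 and 3944 at E15 and at 909, 999 and 1003 in the adult (3.84-fold), and *Scrib*, a scaffold of cell polarity, was at 1825, 2949 and 3042 at E15 and at 614, 692 and 558 in the adult (4.19-fold). No pool of one age reached the range of the other in these genes.

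*Ctnnbl1* matched by its symbol only, since its protein belongs to the splicing machinery and not to the pathway. It was at 2059, 1640.3 and 1788 at E15 and at 3285, 3066 and 2817 in the adult, 1.67-fold higher in the adult under TMM but not under total-count scaling.

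A list of 15 genes known as targets of β-catenin had 11 that could be matched, 6 of them members (*Axin2*, *Lef1*, *Tcf7*, *Lgr5*, *Apcdd1* and *Dkk1*). All 11 were called higher at E15, as were 34.7% of all genes tested. The median log2 ratio of the 11 was 4.40. Outside the rule, *Sp5*, a transcription factor gene, was at 590.1, 874 and 879.9 at E15 and had 1 read in each adult pool, a ratio of 577 (197 to 2797). *Ccnd1*, which encodes the cell cycle protein cyclin D1, was at 3554, 3887 and 3665 at E15 and at 617, 857 and 655 in the adult (5.21-fold), and the proliferation markers moved in the same direction. *Cd44*, a cell adhesion receptor gene, was at 201, 215 and 206 at E15 and at 28.3, 32.5 and 15.1 in the adult (8.14-fold). In these lists of 114 genes, 58 were members, 22 lay outside the rule and 34 were not matched by name. Among the 34 is *Fzd10*, which is given above under the name *Fzd10-ps1*. Of the 22, 20 were called higher at E15 and 2, *Wls* and *Sostdc1*, higher in the adult. Over all genes tested these shares were 34.7% and 29.3%. Every matched gene had been called by the authors beforehand, so these counts are no independent evidence of direction.

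Promoter windows were found in the RefSeq table for 49 member genes, with more than 1 window for *Prickle2*. They were searched on both strands for the letters CTTTGNN, in which each N stands for A or T here, a form of the site that TCF and LEF factors bind. Of these 49 genes, 4 had a match (8.16%), against 3102 of 19005 protein-coding genes (16.3%), and the median G and C content was 65.0% in the members and 55.3% in all. Positions count the gene start as base 1, with negative numbers before it and no base 0. The first letter of a match lay at -232 and -132 in *Axin2*, at -96 and -77 in *Dkk1*, at -4 in *Tcf7* and at 20 in *Wnt3*, all on the strand of the gene. Such matches are descriptions of the letters only. The windows with 2 matches are shown because both genes belong to the β-catenin target list, with the matched letters in capitals, for *Axin2* chr10:94398535-94398834 (plus strand) and for *Dkk1* chr1:237798601-237798900 (minus strand), 5′ to 3′ on the strand of the gene in GRCr8.
Axin2: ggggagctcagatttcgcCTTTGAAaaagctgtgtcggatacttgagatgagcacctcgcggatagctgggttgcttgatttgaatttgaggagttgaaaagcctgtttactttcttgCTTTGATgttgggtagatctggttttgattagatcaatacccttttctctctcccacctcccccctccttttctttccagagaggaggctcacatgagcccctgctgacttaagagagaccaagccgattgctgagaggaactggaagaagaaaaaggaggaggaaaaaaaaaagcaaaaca
Dkk1: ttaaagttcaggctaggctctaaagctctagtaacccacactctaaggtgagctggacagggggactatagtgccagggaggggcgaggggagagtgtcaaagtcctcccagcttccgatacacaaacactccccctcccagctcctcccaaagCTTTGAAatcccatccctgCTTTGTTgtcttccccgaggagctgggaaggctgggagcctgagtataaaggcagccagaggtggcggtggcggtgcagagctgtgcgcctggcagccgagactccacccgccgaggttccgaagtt
*Axin2* kept a mean of 951 normalized counts in the adult, whereas *Dkk1* had no adult read.

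E15 pool 1 stood lowest for much of the pathway. It was the lowest E15 pool in 40 of the 60 members and in 7810 of the 16643 genes tested, and the median log2 ratio of this pool to the mean of the other E15 pools was -0.24 over the members and -0.05 over all genes. The shortfall was widest among the dishevelled group (5 of 5 genes lowest in pool 1, median -0.60) and the ligands (12 of 14, median -0.48), while R-spondins and their receptors were level (2 of 6, median 0.03). In the same pool the median was 1.17 for developing-neuron markers, 0.76 for neural progenitor markers, -0.35 for endothelial markers and -0.31 for epithelial markers. The part of these cells in the spread of the pathway genes was not tested. Without E15 pool 1, 49 members were called higher at E15 and 11 in the adult.

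**Figure D4:**
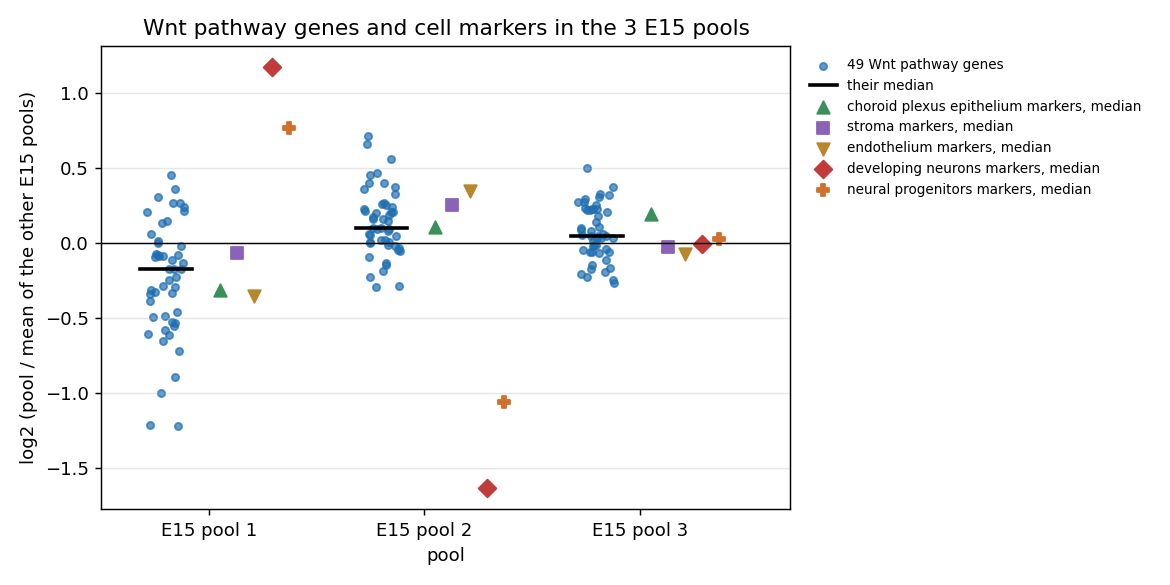
Log2 ratio of each E15 pool to the mean of the other E15 pools for the 49 Wnt pathway genes with a mean normalized count above 100 at E15 (circles, black bar at the median) and the medians of 5 marker lists (symbols). In pool 1 the Wnt genes have a median of -0.18 with neuron and progenitor markers at 1.17 and 0.76, and in pool 2 these markers are at -1.63 and -1.06 with the Wnt genes at 0.10.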

How the data were processed

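Counts of 6 libraries (3 pools at each age, 1 library per pool) were analysed. The deposited values are raw whole-number counts for Ensembl genes, made by the authors by mapping trimmed reads with Bowtie 0.12.7 to the rat genome of Ensembl release 61, keeping uniquely placed reads and counting them with HTSeq 0.4.7p4. Reads shared by near-identical genes were therefore lost. A second deposited table of the authors gives names, log2 fold changes, log2 abundances and p-values from edgeR 2.4.0 for the genes they called. Only its identifiers, names and gene descriptions were used, the descriptions to match symbols. Replicates were separate pools, as numbered in the labels.

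Genes with more than 10 counts in all were fitted with edgeR 4.0.16 in R 4.3.3 (TMM factors, glmQLFit and glmQLFTest, age as the only term). The Benjamini-Hochberg adjustment over 16643 genes had a threshold of 0.05, the common dispersion was 0.0332 and the biological coefficient of variation 18.2%. A gene with 0 adult counts was given a lower bound from 3 counts over the 3 pools. Ratios with 1 to 3 counts have exact 95% binomial intervals, and both cover counting error only. The deviation of a pool used a pseudocount of 0.5. Alternatives were other scalings (RLE, upper quartile, total counts, totals without the top 10 genes), no filter, filterByExpr, a mean count above 100, DESeq2 1.42.0, limma-voom (limma 3.58.1), an exact test, the replicate number as a block and each library left out. The tests were tried on simulated data. Lists were handled in Python 3.11.15 (pandas 2.3.3, with scipy 1.17.1 for the intervals) and drawn with matplotlib 3.10.9.

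Members, pathway lists and marker lists were chosen with earlier results of these data known. All members are given. By rule, those with a mean normalized count above 100 at the higher age, all ligands and all members with 0 counts at an age are given by pool, and up to 3 genes of each pathway list outside the rule are named by highest mean. Other genes given by pool were added after their values were seen. Transcript lengths were not available for the count build, so levels were not compared between genes. Promoter sequences are RefSeq windows of GRCr8, another build than that of the counts.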

Additional observations from a re-analysis of the deposited data

How the results depend on the processing

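The number of members called higher at E15 was 44 to 49 under every alternative except the filter on a mean count above 100, which tested 50 members and called 39. The number called in the adult was 11 throughout, except 9 with totals without the top 10 genes and 4 with total counts only, where the log2 ratios of *Vangl1* (0.27) and *Ctnnbl1* (0.066) reversed. The median log2 ratio of the members (2.42) was 2.54 with upper quartile factors, 3.22 with total counts, 2.88 without the top 10 genes, 2.13 with filterByExpr, 2.14 with the mean filter, and 2.12 to 2.80 with a library left out. The filters, and the fits without E15 pool 2 or pool 3, tested fewer members. The median of all genes (0.14) was 0.26 with upper quartile factors, 0.945 with total counts and 0.60 without the top 10 genes. The cause of the other shifts was not tested. The genes outside the rule gave 17 to 20 calls at E15 and 2 in the adult. Of 1005 values of members under alternatives, 973 kept direction and call, 14 lost and 16 gained a call, and 2 reversed, in 12 members. Replicate numbers did not pair the pools (correlations of -0.02, -0.01 and -0.06), and the fit with the replicate block gave 46 and 11 member calls, and 5320 and 4608 calls over all genes against 5773 and 4879. Depth limits the 14 members with 11 or fewer adult reads in all. The p-values set the difference of the ages against the spread between 3 pools per age and no other variation. That spread was estimated with information shared over genes.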
